A study of Mus musculus with 9 samples.

Results

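Nodal, Lefty and Activin signalling was followed through 10 genes of the pathway: the ligands Nodal and Gdf3, the inhibitors Lefty1 and Lefty2, the co-receptor Tdgf1, the receptors Acvr1b and Acvr2b, the signal carriers Smad2 and Smad3, and their DNA-binding partner Foxh1. They were chosen by name as members of that pathway, by taking every array probe that is not a control and carries the name of such a gene. This gave 15 of the 55681 probes, and all 10 genes were among the 19913 genes tested. The RNA came from mouse embryonic stem cells of an inducible Xpc knockout line made with the Cre-loxP system. Xpc is a sensor of DNA lesions in nucleotide excision repair and is also known as a transcriptional partner of Oct3/4 and Sox2. Floxed cells carried loxP-flanked Xpc with no deletion (titles marked -Tx). Induced cells were from the floxed line, taken 4 days after deletion of Xpc (titles marked +Tx). Null cells were subcloned cells lacking Xpc. Each group had 3 arrays with 1 RNA sample each, 9 in all. The labels do not say that these were separate cultures, and the spread behind each p-value is that between arrays, which may be technical. The inducing agent, the promoter that drives Cre, the culture medium and any feeder layer are not given in the labels. The induction itself and the loss of Xpc cannot be told apart in induced cells, nor can subcloning and the loss of Xpc in null cells.

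Nodal and Activins are secreted ligands of the TGF-beta family. They bind receptor complexes that hold Acvr2b and Acvr1b, Nodal and Gdf3 needing the co-receptor Tdgf1 as well, and the receptors phosphorylate Smad2 and Smad3, which enter the nucleus with Smad4 and act on target genes with partners such as Foxh1. Lefty1 and Lefty2 are secreted antagonists of Nodal and are themselves target genes of the pathway, and mouse embryonic stem cells are known to make both Nodal and Lefty.

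Each probe is a 60-base oligonucleotide, and a signal is that of the stretch of transcript it pairs with. The probes that stand for Gdf3 and Foxh1 are printed to show what was read, at mm9 chr6:122556340-122556399 and chr15:76498767-76498826, both on the minus strand. 
Gdf3: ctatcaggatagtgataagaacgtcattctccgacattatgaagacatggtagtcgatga
Foxh1: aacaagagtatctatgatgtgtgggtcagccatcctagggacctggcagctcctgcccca

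Promoters of 5 members (Nodal, Tdgf1, Smad3, Acvr2b and Acvr1b) were matched in RefSeq, as windows of 300 bases that end 50 bases after the gene start. They were searched on both strands for letters that the pathway's own factors Foxh1, Smad3 and Smad4 are known to bind, and for the octamer. The Foxh1 motif AATNNACA was present in 1 of the 5, Tdgf1, which held it at 2 places, and in 12.2% of all 32851 promoters of that length. Tdgf1 also held the Smad motif CAGAC, as did Acvr2b, against 49.6% of all promoters. The longer motifs were in none of the 5: AATCCACA (Foxh1) is in 0.855% of all promoters, GTCTAGAC (Smad3 and Smad4) in 0.213% and ATTTGCAT (the octamer) in 1.74%. AATNNACA takes in AATCCACA, and GTCTAGAC can overlap CAGAC. A match describes letters only. The 250 bases before the Tdgf1 gene start, GRCm38.p6 chr9:110946159-110946408 on the minus strand, are shown because the Foxh1 letters (AATTTACA, 127 to 120 and 101 to 94 bases before the start) lie on both sides of the Smad letters (113 to 109 bases before it), all in capitals.
Tdgf1: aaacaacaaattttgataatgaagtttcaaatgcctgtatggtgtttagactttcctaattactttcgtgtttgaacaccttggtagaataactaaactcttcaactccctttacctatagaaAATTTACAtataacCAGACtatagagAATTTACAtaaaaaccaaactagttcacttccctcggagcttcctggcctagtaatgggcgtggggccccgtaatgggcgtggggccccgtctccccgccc

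Signals are given as log2 of the processed intensity minus the log2 of the array's own 75th percentile, so a value of 1 is 2 times that percentile and a difference of 1 is a doubling. Between 47.4% and 57.9% of spots on an array lay well above background and 0 were saturated. The number of arrays and the spread within groups limit the precision. The arrays came from 3 slides, each with its own scan: floxed arrays 1 and 2 shared slide 1, floxed array 3 was with null array 3 on slide 2, and all induced arrays were with null arrays 1 and 2 on slide 3. Over all genes, floxed array 3 stood apart from its group: it was at 24.2 on the principal component with the most variance (47.3%), where floxed arrays 1 and 2 were at -32.6 and -33.9 and null arrays at 29.1 to 36.2. Results of members that passed only with it or only without it are given both ways. For the wider pathway list only counts are given without it, and results of cell type markers are given with it only. Xpc signal ran from 0.16 to 0.59 in floxed, from -1.11 to -0.68 in induced and from -1.53 to -0.85 in null arrays, so the labels and the Xpc transcript went the same way on every array. Xpc itself passed the test in null minus floxed (-1.68, limma adjusted p = 0.00584). It did not pass in induced minus floxed (-1.38, limma adjusted p = 0.224) or in null minus induced (-0.30, 0.386). Pou5f1, Sox2 and Nanog did not pass the test in any comparison.

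The pathway stayed detectable in all 3 states. All 10 members lay well above background on all 9 arrays, at 14 of their 15 probes (the remaining Smad3 probe was above background on no array). The gene that moved past the test was Lefty2, which was lower in null than in induced cells. Its relative Lefty1 had the same order of group means, induced cells highest, without passing. Of the other 8 members, none passed in any of the 3 comparisons by limma with Benjamini-Hochberg adjustment over all 19913 genes at a threshold of 0.05. Between induced and floxed cells 0 of 10 members passed, against 0.00502% of all genes in either direction, and 2 members (Lefty1 and Lefty2) had an unadjusted limma p under 0.05, as had 1177 of the 19913 genes. Between null and floxed cells 0 of 10 passed, against 1.85% of all genes (0.738% rose and 1.11% fell), and 0 had an unadjusted p under 0.05, as had 4542 of all genes. Between null and induced cells 1 of 10 passed, against 2.20% of all genes (0.658% rose and 1.54% fell), and 4 had an unadjusted p under 0.05, as had 4749 of all genes. The median log2 difference of the members was 0.07, 0.07 and 0.05 in the same order, beside -0.00069, 0.01 and 0.02 for all genes.

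**Figure D1:**
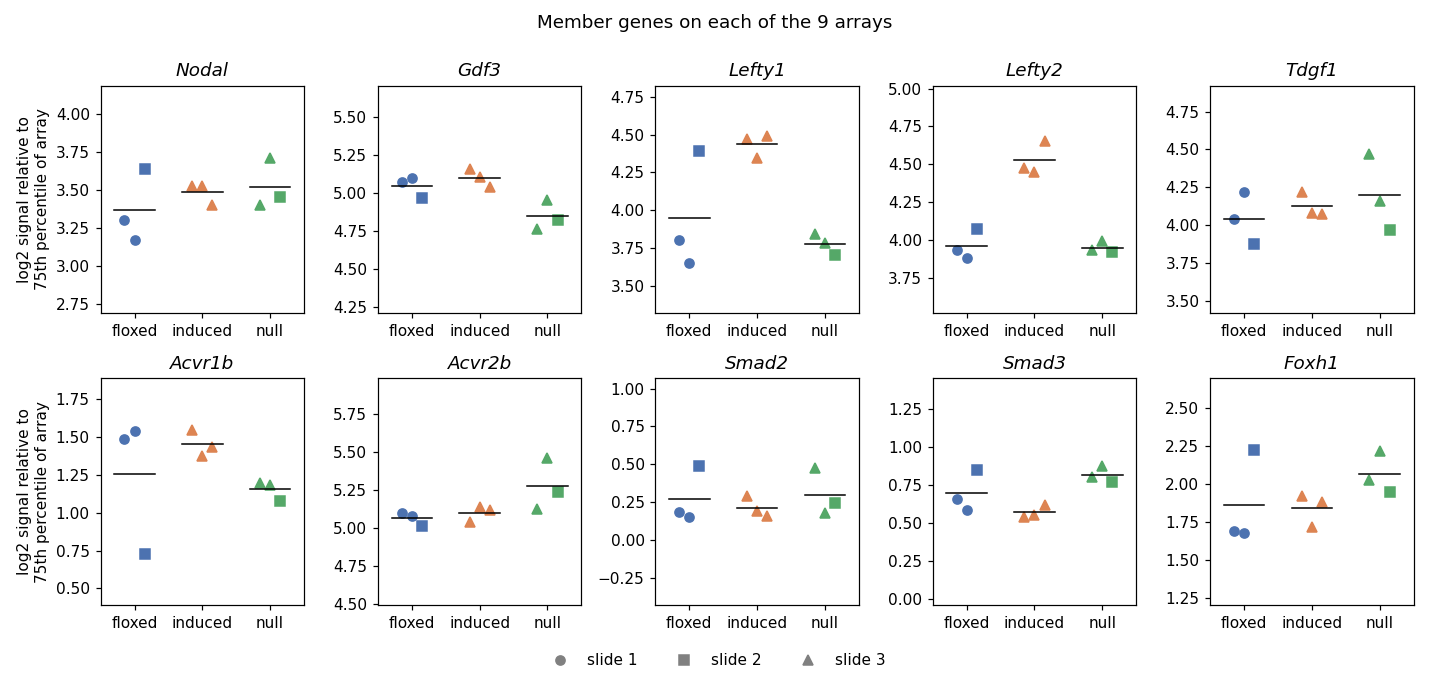
Log2 signal of each member gene over the array's 75th percentile (vertical axis, with its own level in each panel) on the 3 floxed, 3 induced and 3 null arrays. There is 1 point per array, the colour gives the group, the shape gives the slide, and the line is the group mean. Lefty2 lies at 4.45 to 4.66 on the induced arrays and at 4.07 or below on the other 6, whereas Nodal, Tdgf1 and Smad2 overlap in every pairing of groups.

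Nodal, the ligand the pathway is named for, was read at mm9 chr10:60887790-60887849 on the plus strand. Its log2 signal was 3.30, 3.17 and 3.64 on floxed arrays 1 to 3, 3.53, 3.53 and 3.40 on induced arrays and 3.40, 3.71 and 3.45 on null arrays. The highest and the lowest values thus lay in null and floxed cells, and all 3 groups overlapped. Induced minus floxed was 0.12 (95% interval -0.20 to 0.43), null minus floxed 0.15 (-0.16 to 0.47) and null minus induced 0.04 (-0.28 to 0.35), with limma adjusted p-values of 0.972, 0.538 and 0.900. Without floxed array 3, the highest of its group, induced minus floxed was 0.25 and null minus floxed 0.29, and neither passed (limma adjusted p = 0.449 and 0.111). With slide as a fixed block the same differences were -0.25 and -0.18, so the direction for Nodal against floxed cells was not settled.

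Gdf3, a ligand that also acts through Tdgf1, had 5.07, 5.10 and 4.97 on floxed, 5.15, 5.10 and 5.04 on induced and 4.76, 4.95 and 4.82 on null arrays. Every null array was below every floxed and every induced array. Null minus floxed was -0.20 (SE 0.09, limma adjusted p = 0.236) and null minus induced -0.25 (SE 0.09, limma adjusted p = 0.149), neither of which passed, and induced minus floxed was 0.05. The other Gdf3 probe gave larger differences in the same direction, with null and floxed arrays overlapping, -0.41 between null and floxed and -0.54 between null and induced, with limma adjusted p-values of 0.164 and 0.102 over all probes. On the slide that held both induced and null arrays, null minus induced was -0.24 for Gdf3.

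Lefty2, a secreted antagonist of Nodal, was read at mm9 chr1:182828893-182828952 on the plus strand. Its log2 signal was 3.94, 3.88 and 4.07 on floxed arrays 1 to 3, 4.48, 4.45 and 4.66 on induced arrays, and 3.93, 3.99 and 3.92 on null arrays. All 3 induced arrays were above all 6 others, and floxed and null arrays overlapped. Floxed cells averaged 3.96 ± 0.10 (SD, n = 3), induced cells 4.53 ± 0.11 (SD, n = 3) and null cells 3.95 ± 0.04 (SD, n = 3). Null minus induced was -0.58 (SE 0.10, 95% interval -0.80 to -0.36, limma adjusted p = 0.0291), so null cells held 67.0% of the induced level. Induced minus floxed was 0.56 (SE 0.10, 95% interval 0.34 to 0.78), a fold of 1.48 and in size above 96.7% of all genes, but it did not pass (limma adjusted p = 0.224). Null minus floxed was -0.02 (95% interval -0.24 to 0.20, limma adjusted p = 0.939).

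Lefty1, the other antagonist, was read at mm9 chr1:182868137-182868196 on the plus strand. Its log2 signal was 3.81, 3.65 and 4.39 on floxed arrays 1 to 3, 4.47, 4.34 and 4.49 on induced arrays and 3.85, 3.78 and 3.71 on null arrays. Floxed array 3 lay within the induced range and floxed arrays 1 and 2 within or just below the null range, while induced and null arrays did not overlap. The group averages were 3.95 ± 0.39 (SD, n = 3) for floxed, 4.44 ± 0.08 (SD, n = 3) for induced and 3.78 ± 0.07 (SD, n = 3) for null cells. Null minus induced was -0.66 (SE 0.17, 95% interval -1.05 to -0.26), 63.4% of the induced level, and did not pass (limma adjusted p = 0.0860). Induced minus floxed was 0.48 (95% interval 0.09 to 0.88, limma adjusted p = 0.717) and null minus floxed -0.17 (95% interval -0.57 to 0.22, limma adjusted p = 0.579).

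**Figure D2:**
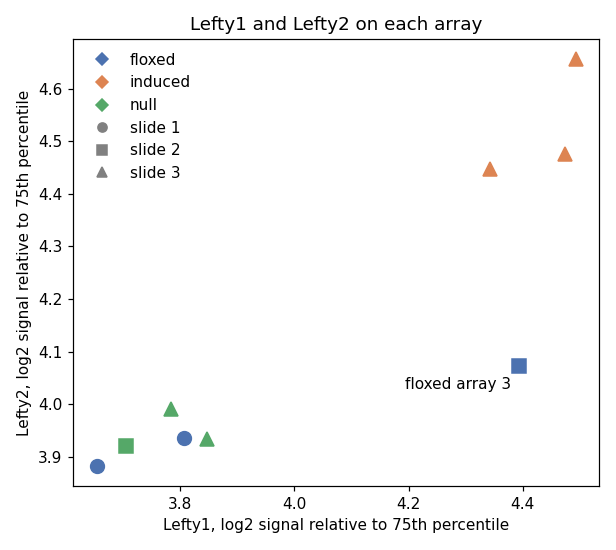
Lefty1 (horizontal axis) against Lefty2 (vertical axis) on each of the 9 arrays, both as log2 signal relative to the array's 75th percentile, with colour for the group and shape for the slide. The 3 induced arrays sit at the upper right, the null arrays and floxed arrays 1 and 2 at the lower left, and floxed array 3 has an induced-like Lefty1 (4.39) with a Lefty2 of 4.07.

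On the slide that held every induced array beside null arrays 1 and 2, null minus induced was -0.56 for Lefty2 and -0.62 for Lefty1, nearly as large as over all arrays. On the slide of floxed array 3 and null array 3, null minus floxed was -0.15 for Lefty2 and -0.69 for Lefty1. No slide held both induced and floxed arrays, so for that comparison slide and group could be separated only through the null arrays. With slide as a fixed block, null minus induced was -0.56 for Lefty2 and -0.62 for Lefty1. Both passed (limma adjusted p = 0.0114 and 0.0079), as did 16.3% of all genes. By contrast, induced minus floxed was 0.41 for Lefty2 and -0.07 for Lefty1. In that fit the last comparison rests on the difference of floxed array 3 from null array 3, joined to induced cells through the null arrays.

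The fall of Lefty2 from induced to null cells kept its direction in 19 of 19 alternatives, between -0.62 and -0.51, and stayed past the threshold in 11 of them. The settings that lost it include leaving out each induced array in turn (limma adjusted p = 0.0869, 0.0942 and 0.113), leaving out each null array (0.0834, 0.0905 and 0.0780) and using no filter on dim probes (0.125). Without floxed array 3 both Lefty genes passed in 2 comparisons: induced minus floxed was 0.71 for Lefty1 and 0.62 for Lefty2 (limma adjusted p = 0.0319 and 0.0388), and null minus induced was past the threshold for Lefty1 (-0.66, 0.00258) and Lefty2 (-0.58, 0.0037). In that setting 0.728% of all genes passed in induced minus floxed and 18.1% in null minus induced. The 3 groups share an estimate of the spread, so leaving out a floxed array also changes the test of null minus induced. Leaving out floxed array 3 left 2 floxed arrays, both on a slide that held no other group.

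**Figure D3:**
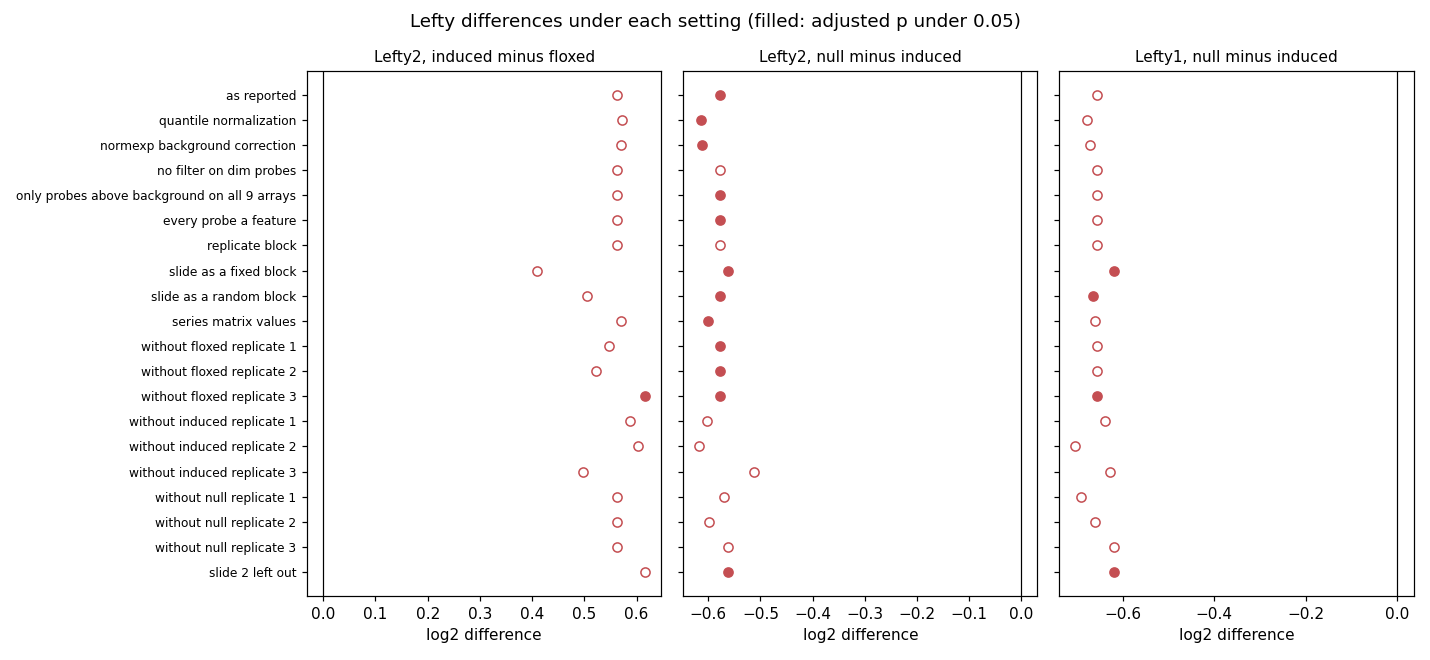
Log2 differences (horizontal axis) of Lefty2 in induced minus floxed and of Lefty2 and Lefty1 in null minus induced, as reported and under each of the 19 alternatives (vertical axis), filled where the limma adjusted p was under 0.05. Every point of a panel lies on 1 side of 0, Lefty2 between 0.41 and 0.62 in induced minus floxed and between -0.62 and -0.51 in null minus induced, and Lefty1 between -0.70 and -0.62.

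Lefty1 and Lefty2 lie close together on chromosome 1, the Lefty1 probe starting 39185 bases after the Lefty2 probe ends in mm9. The probes share little sequence: aligned without gaps they matched at no more than 22 of 60 bases, with no shared run over 5 bases.

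Tdgf1, the co-receptor also called Cripto, had 4.04, 4.22 and 3.87 on floxed, 4.22, 4.08 and 4.07 on induced and 4.47, 4.16 and 3.97 on null arrays at its brightest probe. The null arrays spanned the widest range and the groups overlapped in every pairing. The differences were 0.08 (induced minus floxed), 0.16 (null minus floxed) and 0.07 (null minus induced), with limma adjusted p-values of 0.986, 0.546 and 0.785. Its 3 probes were not alike. At another probe the groups separated in the order floxed (2.37 to 2.50), induced (2.57 to 2.61) and null (2.63 to 2.78), with null minus floxed at 0.25 (limma adjusted p = 0.164 over all probes), and the remaining probe overlapped in every pairing.

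Acvr1b, the type I receptor also called Alk4, had 1.49, 1.54 and 0.73 on floxed, 1.55, 1.37 and 1.44 on induced and 1.20, 1.18 and 1.08 on null arrays. All null arrays were below all induced arrays, and floxed array 3 was the lowest of the 9. Null minus induced was -0.30 (SE 0.20, limma adjusted p = 0.382), null minus floxed -0.10 (0.793) and induced minus floxed 0.20 (0.968), none of which passed. At the other Acvr1b probe the groups overlapped in every pairing, with null minus induced at -0.29 (limma adjusted p = 0.582 over all probes). Without floxed array 3, Acvr1b passed between null and floxed cells (-0.36, limma adjusted p = 0.0233) and between null and induced cells (-0.30, limma adjusted p = 0.0388). In that setting 24.8% and 18.1% of all genes passed in the same comparisons. Yet on the slide shared by floxed array 3 and null array 3 the null array was higher by 0.35.

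Acvr2b, a type II receptor that binds Activin and Nodal, had 5.10, 5.08 and 5.01 on floxed, 5.04, 5.14 and 5.12 on induced and 5.12, 5.46 and 5.24 on null arrays. Every null array was above every floxed array, by 0.21 on average (SE 0.11, 95% interval -0.03 to 0.45, limma adjusted p = 0.267). Null and induced arrays overlapped (0.18, limma adjusted p = 0.340), as did induced and floxed arrays (0.04).

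Smad2 and Smad3 carry the signal from the receptors to the nucleus. Smad2, on chromosome 18, had 0.18, 0.15 and 0.49 on floxed, 0.29, 0.19 and 0.16 on induced and 0.47, 0.18 and 0.25 on null arrays, overlapping in every pairing, and no difference was larger than 0.09 in size (limma adjusted p from 0.704 to 0.993). Smad3 had 0.66, 0.58 and 0.85 on floxed, 0.54, 0.55 and 0.62 on induced and 0.80, 0.88 and 0.77 on null arrays. All null arrays were above all induced arrays for Smad3, with null minus induced at 0.25 (SE 0.10, 95% interval 0.03 to 0.47), which did not pass (limma adjusted p = 0.168). Induced minus floxed was -0.13 and null minus floxed 0.12 for Smad3.

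Foxh1, the forkhead factor that brings the Smads to DNA, had 1.69, 1.68 and 2.22 on floxed, 1.92, 1.72 and 1.88 on induced and 2.03, 2.22 and 1.95 on null arrays. Null arrays were all above induced arrays (0.22, SE 0.16, limma adjusted p = 0.416), and floxed array 3 was as high as the highest null array. Null minus floxed was 0.20 (limma adjusted p = 0.470) and induced minus floxed -0.02. Without floxed array 3, null minus floxed was 0.38 and passed (limma adjusted p = 0.0395), as did 24.8% of all genes. The within-slide difference of null array 3 from floxed array 3 was -0.28 instead.

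Read by whether groups overlapped, 1 member was separate between induced and floxed cells (Lefty2, higher), against 12.9% of all genes (6.63% higher and 6.26% lower). Between null and floxed cells 2 were separate (Gdf3 lower, Acvr2b higher), against 23.4% of all genes (12.0% higher and 11.4% lower). Between null and induced cells 6 of 10 were separate, against 37.2% of all genes (19.0% higher and 18.3% lower): Gdf3, Lefty1, Lefty2 and Acvr1b were lower and Smad3 and Foxh1 higher. Within the floxed group, array 3 differed from the mean of arrays 1 and 2 by 0.66 for Lefty1, 0.54 for Foxh1, 0.40 for Nodal, 0.32 for Smad2 and -0.78 for Acvr1b, against 0.16 for Lefty2 and -0.07 for Acvr2b.

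**Figure D4:**
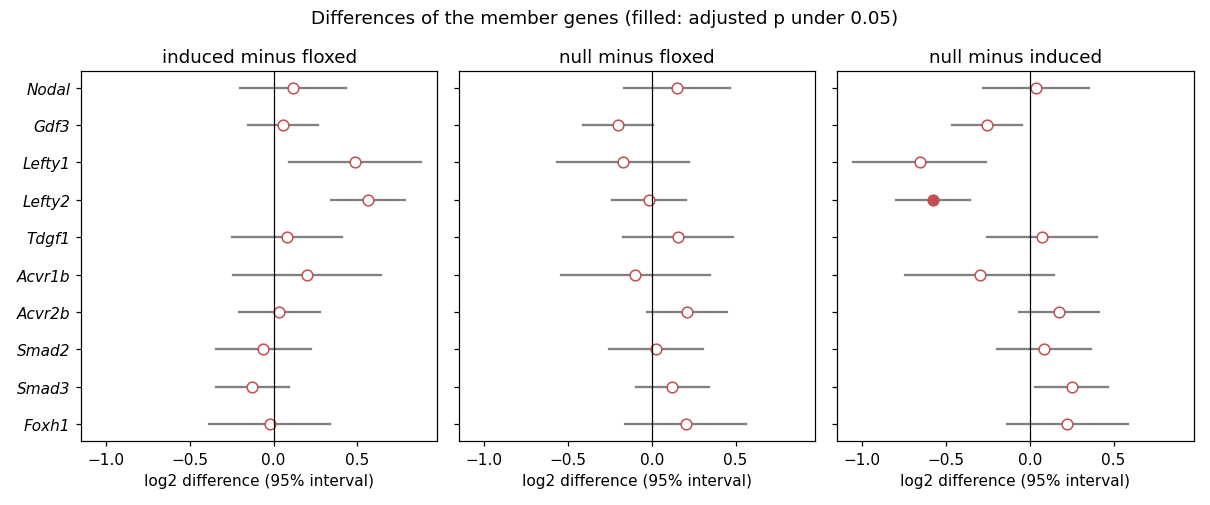
Log2 difference of each member gene with its 95% interval (horizontal axis) in the 3 comparisons, filled where the limma adjusted p over all genes was under 0.05. The single filled point is Lefty2 in null minus induced, at -0.58.

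Around the 10 members, a list of 46 other genes of the pathway was read in the same fit, and 36 of them were bright enough to be tested. The 10 left out (Inha, Inhbc, Pcsk5, Cer1, Bambi, Acvr1c, T, Mixl1, Foxa2 and Sox17) were above background on at most 1 array. In induced against floxed cells 0 of 36 passed (1 had an unadjusted p under 0.05). In null against floxed cells 1 rose and 2 fell, and in null against induced cells 2 rose and 3 fell, where 1.85% and 2.20% of all genes passed in either direction. Inhba, near background, is counted among the falls in both. The list's median difference was -0.04, -0.05 and -0.04.

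Among the subunits of Activin, the ligands' side of the list, Inhbb and Inhba passed, Inhba near background. Inhbb, the subunit of Activin B, was at -0.96, -0.80 and -1.27 on floxed, -1.16, -1.37 and -1.36 on induced and -0.07, 0.00 and -0.49 on null arrays. All null arrays were above the other 6, and Inhbb rose by 0.82 from floxed and by 1.12 from induced to null cells (limma adjusted p = 0.0445 and 0.0172). Inhba, the subunit of Activin A, was dim: it was above background on 1 of 3 floxed, 3 of 3 induced and 0 null arrays. Its signal was lower in null than in floxed and induced cells (limma adjusted p = 0.0188 and 0.0231). Only the induced group brought Inhba through the filter on dim probes, so these p-values are not taken as support for a fall. Against induced cells it was at least 1.42-fold lower, taking each null array at no less than the lowest signal its probes reached above background, and against floxed cells no fold is given. The other 4 tested genes of ligands and their processing did not pass.

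Among the 6 tested extracellular inhibitors and co-receptors, Fstl1 and Cfc1 fell in null cells. Fstl1, a follistatin-like secreted protein, was at 1.93, 2.12 and 2.31 on floxed, 2.43, 2.47 and 2.44 on induced and 1.42, 1.54 and 1.46 on null arrays. The 3 groups did not overlap, with induced cells highest as for the Lefty genes. Fstl1 fell by 0.64 from floxed and by 0.97 from induced to null cells (limma adjusted p = 0.0285 and 0.00563), and induced minus floxed was 0.33 (0.666). Cfc1, a co-receptor related to Tdgf1, was at 0.56, 0.45 and 0.91 on floxed, 0.99, 0.70 and 0.78 on induced and 0.01, 0.23 and 0.12 on null arrays. All null arrays were the lowest, and Cfc1 fell by 0.70 between induced and null cells (limma adjusted p = 0.0440), while null minus floxed was -0.52 (0.0914).

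None of the 4 tested receptors and none of the 13 Smads and nuclear regulators passed in any comparison. Of the 7 tested target genes 1 passed, Otx2, a homeobox factor of the epiblast and forebrain that also stands on the list of primed epiblast markers. It was at 4.66 on all 3 floxed arrays, at 4.68, 4.55 and 4.49 on induced and at 4.97, 5.13 and 5.03 on null arrays, the null arrays being above the other 6. Otx2 rose by 0.47 from induced to null cells (limma adjusted p = 0.0423), and null minus floxed was 0.38 (0.0741). Without floxed array 3, 14 list genes passed between null and floxed cells and 12 between null and induced cells, against 24.8% and 18.1% of all genes. Without floxed array 2, null array 1 or null array 2, 0 list genes passed between null and floxed cells. Between null and induced cells 1 passed when any of the induced arrays, null array 1 or null array 2 was left out.

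**Figure D5:**
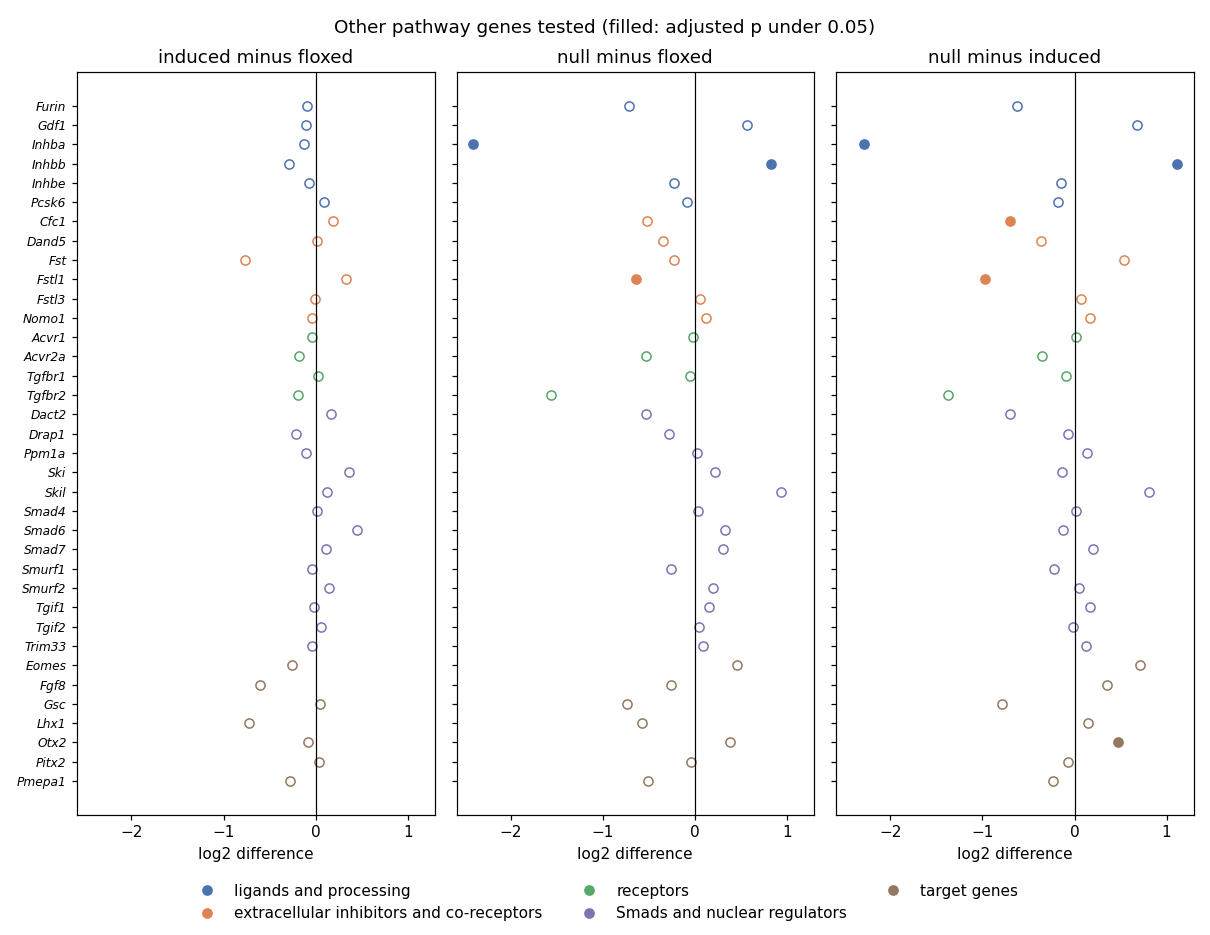
Log2 differences (horizontal axis) of the 36 tested pathway list genes (vertical axis, coloured by class) in the 3 comparisons, filled where the limma adjusted p was under 0.05. Of the filled points, Inhbb lies above 0 and Fstl1 below 0 in both comparisons of null cells, and the positions of Inhba there rest on null signals below background.

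Markers of embryonic stem cells (9 of 9) lay above background on every array, and 0 passed in any comparison. Their summed signal, in multiples of the 75th percentile, was 813 to 921 in floxed, 761 to 946 in induced and 686 to 806 in null arrays. The brightest, Dppa5a (group means 8.83 to 8.95), weighs most in these sums. Yet 6 of the 9 were lower on every null than on every induced array, against 18.3% of all genes, and 0 were higher. The 6 were Tbx3 (-1.01), Esrrb (-0.66), Nanog (-0.63), Klf4 (-0.28), Zfp42 (-0.26) and Sox2 (-0.21). Markers of the fibroblast, trophectoderm and primed epiblast lists moved with the null group, beside the falls of Lefty2, Fstl1 and Cfc1 and the rises of Inhbb and Otx2. Over all genes, 1.11% fell and 0.738% rose in null against floxed cells, and 1.54% fell and 0.658% rose against induced cells. Of 8 tested fibroblast markers 6 fell in null against floxed cells and 6 against induced cells, while Thy1 was higher on all null arrays (1.37 and 1.34) without passing. Their sums were 95.4 to 160 in floxed, 127 to 132 in induced and 91.8 to 97.9 in null arrays, most of each being Fn1, which did not pass, with Postn above background on no array and Col3a1 and Twist2 on no null array. Of 6 tested trophectoderm markers 5 and 4 fell (sums of 78.0 to 116, 68.0 to 93.6 and 36.1 to 39.3; Elf5 on no array and Cdx2 on no null array). Of 5 primed epiblast markers 2, Otx2 and Pou3f1, passed as higher in null than in induced cells and 0 passed against floxed cells. All 5 were higher on every null than on every induced array, against 19.0% of all genes. On every null array 3 were higher than on every floxed array, against 12.0% of all genes. The other markers, Fgf5 and Sox3, were at 1.85 and 1.34 on floxed array 3. Sums of the 5 were 71.7 to 141 in floxed, where array 3 was the highest, 74.6 to 79.7 in induced and 153 to 163 in null arrays. Of primitive endoderm, Gata6, Sox17, Sox7 and Pdgfra were above background on no array. Gata4, the 1 tested, was above it on all floxed and induced and 2 null arrays and did not pass. The list's sums were 0.277 to 0.353, 0.316 to 0.370 and 0.261 to 0.338. Of primitive streak and mesoderm, Mixl1 was above background on no array, while Kdr and Eomes were on every array. These sums were 20.6 to 36.1, 18.4 to 26.7 and 18.4 to 35.1, and 0 of 3 tested markers passed in any comparison. No marker of the 6 lists passed between induced and floxed cells. The part of such cells in the results was not tested, and in RNA of whole cultures fewer cells of a type and less RNA per cell cannot be told apart.

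Genes whose pattern over the 9 arrays was most like a member's were found by the smallest root mean square difference of mean-centred log2 values among 11989 named genes above background on every array. For Nodal they were Nploc4 (0.0577), Ptcd1 (0.0586) and Mapt (0.0652). For Lefty1 they were Defa-ps1 (0.122), Hecw2 (0.135) and Defa37 (0.136), with Lefty2 the 11th nearest at 0.160. For Lefty2 they were Platr26 (0.0872), Frat1 (0.114) and Ebi3 (0.115), with Lefty1 the 23rd nearest. As the choice of these genes fixes how they move, no test is given for them.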

How the data were processed

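Total RNA (50 ng per sample) was labelled and hybridised to 1-colour Agilent arrays. The deposited values are linear spot intensity, written per the file headers by Agilent Feature Extraction (version 10.7.3.1, also in the submitters' processing notes). The processed signal is background-subtracted and not scaled between arrays. The deposited series matrix holds the mean signal of the same spots (100% of values within 1%; column medians 101 to 146, no centring, linear scale), and 0 of its columns were left without a sample.

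Groups came from the labels. Control and outlier spots were left out, spots of a probe averaged, and log2 values taken relative to each array's 75th percentile (346 to 471). Of 55681 probes, 27235 were named through RefSeq (GRCm38.p6) and 28446 kept the file's name. Coordinates of probes are in mm9, as deposited, and exons, introns and UTRs of mm9 were not used here. A probe was kept where all 3 arrays of some group were well above background (27536), and 2 were left out as outliers. Each gene stood at its brightest probe. All 3 contrasts came from 1 limma 3.58.1 fit (R 4.3.3) of group means over 9 arrays (lmFit, eBayes, two-sided), with Benjamini-Hochberg adjustment over 19913 genes and a threshold of 0.05. Scripts were first tested on simulated data.

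The members and the gene lists were chosen with earlier results of these data known. Named are all members, up to 3 passing list genes per class and direction, and the 3 genes most like Nodal, Lefty1 and Lefty2. Replicate numbers did not pair the arrays: deviations of same-numbered arrays correlated at -0.106 to 0.0873. Alternatives were quantile normalization, normexp (offset 50), no or a stricter filter, every probe as a feature, the replicate number or slide as a block, the series matrix, each array left out and, chosen after seeing the data, slide 2 (floxed and null array 3) left out. A result on genes near Lefty1 and Lefty2 is not reported here.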

Additional observations from a re-analysis of the deposited data

How the results depend on the processing

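All member differences were smaller than 1 on the log2 scale. The 3 arrays of a group and the spread within groups limit how small a difference passes. Slide, scan and group are partly bound together, and with slide as a fixed block only floxed array 3 links floxed cells to the others. Among the members, counts of passing genes were 0 (induced minus floxed), 0 (null minus floxed) and 1 (null minus induced). With 1 array left out they ran from 0 to 2, from 0 to 2 and from 0 to 3, the highest without floxed array 3. With slide 2 left out they were 1, 2 and 2. In null minus induced they were 0 with no filter on dim probes, 0 with the replicate number as a block, and 2 with slide as a fixed or a random block.

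Counts in the pathway list were 0, 3 and 5. With 1 array left out they ran from 0 to 1, from 0 to 14 and from 1 to 12, the highest again without floxed array 3. In null minus floxed the count was 1 without induced array 2 or 3, and in null minus induced 2 without null array 3 and 3 without floxed array 1. With slide 2 left out they were 1, 13 and 11. With no filter they were 0 in null minus floxed and 1 in null minus induced. With slide as a fixed block they were 2, 1 and 11, and as a random block 1 in null minus floxed and 8 in null minus induced. In null minus induced they were 3 with every probe a feature and 2 with the replicate block.

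The arrays share only replicate numbers. With the replicate block Lefty2 in null minus induced had a limma adjusted p of 0.0602 at the same -0.58, and no other member changed its call. The block moved the calls over all genes from 368 to 166 (null minus floxed) and from 438 to 188 (null minus induced). Over all genes, null minus floxed gave 571 calls with normexp, 76 without a filter, 50 and 103 with slide as a fixed and a random block, 4985 with slide 2 left out, and 79 to 4943 with 1 array left out. Null minus induced gave 63 without a filter, 3249 and 1812 with slide fixed and random, 3249 with slide 2 left out, and 61 to 3610 with 1 array left out. Induced minus floxed gave 1 call, 174 with slide fixed, 113 with slide 2 left out, and 0 to 145 with 1 array left out. No normalization or background correction moved the share of rises among the calls in null cells by over 10 points.

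Some member differences, none of which passed in the main fit, changed sign, and the cause was not tested. With slide as a fixed block, induced minus floxed was -0.25 for Nodal, -0.068 for Lefty1 and -0.10 for Tdgf1, and null minus floxed was -0.18 for Nodal, 0.35 for Acvr1b, -0.24 for Smad2, -0.075 for Smad3 and -0.28 for Foxh1. With slide as a random block, induced minus floxed was -0.022 for Nodal and -0.019 for Tdgf1, and null minus floxed was 0.086 for Acvr1b and -0.085 for Smad2. With the series matrix Smad2 was -0.011 in null minus floxed, and with normexp Nodal was -0.0035 in null minus induced. With slide 2 left out, induced minus floxed was -0.0036 for Tdgf1, -0.061 for Acvr1b, 0.047 for Smad2 and 0.16 for Foxh1, and null minus floxed was 0.085 for Lefty1 and 0.053 for Lefty2. With 1 array left out, induced minus floxed ran from -0.0036 to 0.17 for Tdgf1, -0.061 to 0.34 for Acvr1b, -0.12 to 0.047 for Smad2 and -0.12 to 0.16 for Foxh1. Null minus floxed ran from -0.32 to 0.048 for Lefty1, -0.056 to 0.039 for Lefty2, -0.36 to 0.045 for Acvr1b and -0.062 to 0.13 for Smad2. Null minus induced ran from -0.059 to 0.096 for Nodal, -0.062 to 0.19 for Tdgf1 and -0.0016 to 0.15 for Smad2.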
